A study of Oryza sativa Indica Group with 6 samples.

Results

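The starch synthesis and breakdown genes of rice were followed in young panicles of the *ssh1* mutant and the wild type. The 39 members were given as a list of locus IDs of ADP-glucose pyrophosphorylases, starch synthases, branching and debranching enzymes, phosphorylases, disproportionating enzymes, a dikinase, and amylases, among 55982 loci in all, and the list also holds 2 loci set here in a class of plastid envelope transporters. Of the 39, 38 were listed in the files, 30 averaged 1 FPKM or more across the libraries and were tested, and 8 averaged less. LOC_Os04g08270, a debranching enzyme locus, is not analysed here. Neither the files nor the gene table used here pairs the locus IDs with gene names, so that each locus is given by its ID and by the enzyme class of its list, which was assigned from general knowledge of the rice annotation.

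The *ssh1* plants (genotype SSH1-/-) came from EMS mutagenesis of YIL100 and carry a C-to-A change in an intron of *SNB* (LOC_Os07g13170), which encodes an APETALA2-like transcription factor. The wild type was YIL100 itself, an introgression line with wild rice (*Oryza rufipogon*) segments in the *indica* variety Teqing, so that both groups share this background. Each group had 3 replicates of young panicles of 0 to 4 cm, each replicate a pool of plants, and *ssh1* is a single mutant line that may carry other EMS changes. Whole panicles mix many cell types, and more cells of a type cannot be told apart from more RNA per cell.

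Starch is made in plastids from ADP-glucose, which ADP-glucose pyrophosphorylase, an enzyme of small and large subunits, forms from glucose 1-phosphate. Soluble starch synthases and branching enzymes build amylopectin, granule-bound starch synthase makes amylose, and debranching enzymes trim misplaced branches. Dikinases phosphorylate the granule surface at the start of breakdown, beta-amylases release maltose from chain ends, alpha-amylases cut within chains, and disproportionating enzymes and phosphorylases rework the short glucans. Plants encode most of these enzymes by several genes with different expression in leaves, sink organs, and endosperm.

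As a check of the labels, *SNB* had 7.97, 7.44, and 8.86 FPKM in *ssh1*, against 20.9, 16.9, and 18.0 FPKM in the wild type (log2 fold change -1.11, standard error 0.11, adjusted p = 0.000725). Log2 fold changes throughout are differences of log2(FPKM + 1), *ssh1* minus wild type, from limma over the 18537 genes that averaged 1 FPKM or more, which understates the change of low genes. FPKM is per length and per library, so that levels of different genes can be set side by side, but it holds no read number. The spacing of low values put the depth of the other libraries at -0.25 to 0.07 on the log2 scale relative to wild-type replicate 1. The libraries correlated at 0.948 to 0.959 within *ssh1*, at 0.977 to 0.981 within the wild type, and at 0.834 to 0.898 between genotypes (Pearson's r across genes, which are not independent). Of markers fixed for other tissues, 4 of 9 tested green tissue genes were higher in *ssh1* at an adjusted p below 0.05 and 0 lower, with summed levels of 429 to 771 FPKM in *ssh1* and 367 to 541 FPKM in the wild type. For this and the next lists, the shares over all tested genes were 17.0% higher and 28.0% lower. Of 9 anther and tapetum loci, 5 were tested and 3 were lower, with sums of 25.4 to 33.2 FPKM in *ssh1* and 52.5 to 62.0 FPKM in the wild type. Endosperm storage genes summed to 3.33 to 3.83 FPKM in *ssh1* and 6.46 to 6.74 FPKM in the wild type, and 4 of these 7 loci were at 0 in every library. Of the 6 panicle and spikelet genes, 2 of the 5 tested were higher and 2 lower, with sums of 728 to 838 FPKM in *ssh1* and 738 to 823 FPKM in the wild type. The part of these tissues in the results below was not tested.

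The widest differences among the starch genes were those of the beta-amylases LOC_Os03g04770 and LOC_Os10g41550 and the alpha-amylase LOC_Os08g36910, all higher in *ssh1*. Among the large subunits of ADP-glucose pyrophosphorylase, the soluble starch synthases, the branching enzymes, and the beta-amylases, members of the same class moved in opposite directions. The falls of the branching enzyme LOC_Os02g32660 and the beta-amylase LOC_Os09g39570 were small (limma adjusted p = 0.0446 and 0.0498). They were lost in most alternative fits, as given below. A gene is said here to have risen or fallen in *ssh1* where its adjusted p was below 0.05 at any fold change. By this call, 12 of the 30 tested members rose, or 40.0%, against 17.0% of all tested genes, and 7 fell, or 23.3%, against 28.0% of all tested genes. The remaining 11 did not pass. LOC_Os03g04770 and LOC_Os08g36910, 2 of the 12, averaged under 1 FPKM in the wild type and were tested only because of their level in *ssh1*, so that these counts are descriptions. At the stricter thresholds of the study (fold change of at least 2 and adjusted p below 0.001), 3 members rose, against 3.19% of all tested genes, and 0 fell, against 1.92% of all tested genes. In limma, 5 members had a fold change of at least 2 with an unadjusted p under 0.05, all of them higher, against 7.48% of all tested genes that were higher by this call. The same number was higher with this fold change at an adjusted p below 0.01, against 5.87% of all tested genes, and below 0.05, against 7.07% of all tested genes.

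**Figure D1:**
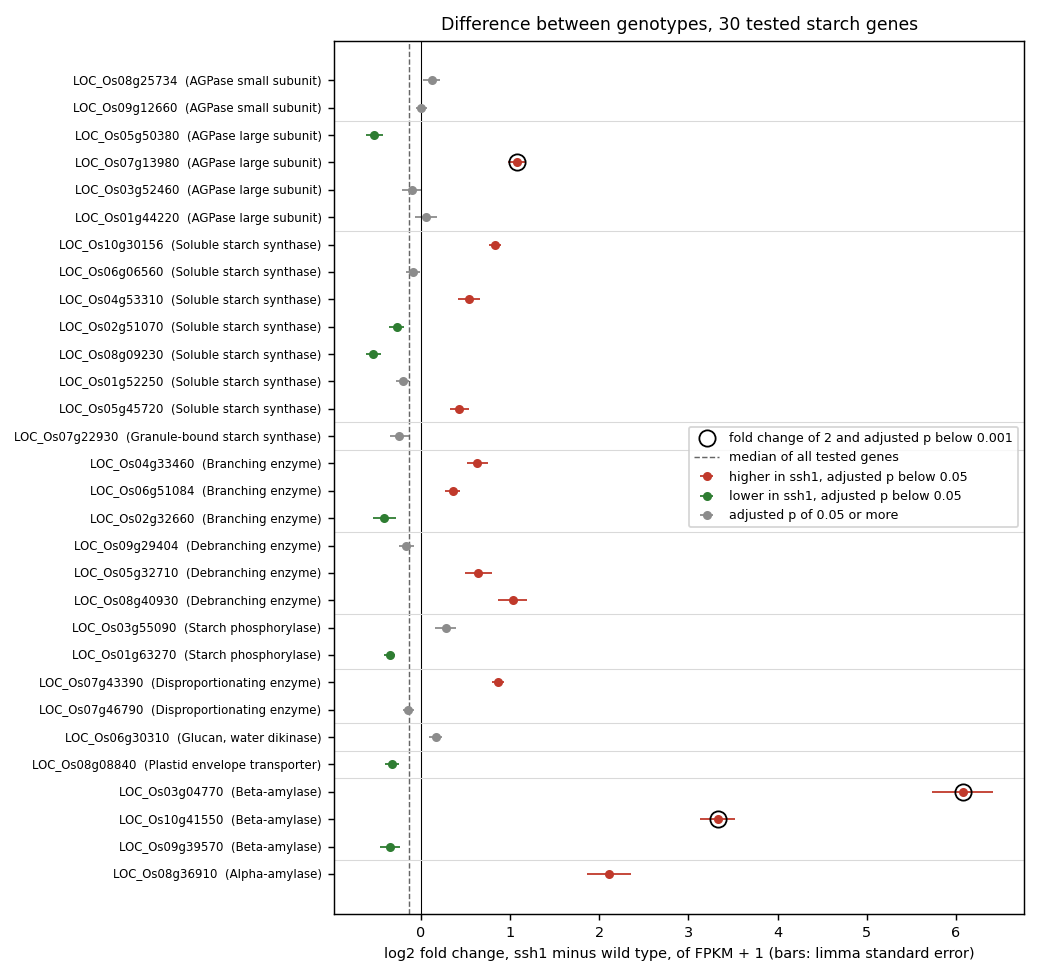
Log2 fold change of FPKM + 1 (horizontal axis, *ssh1* minus wild type) of the 30 tested starch genes, grouped by enzyme class, with bars of 1 limma standard error. LOC_Os03g04770 (6.07), LOC_Os10g41550 (3.33), and LOC_Os08g36910 (2.11) lie far to the right, and the other 27 lie between -0.53 and 1.08. The dashed line is the median of all tested genes, -0.14.

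Over the 18537 tested genes the median difference was -0.14 on the log2 scale, and over the 30 starch genes it was 0.09. The cause of the lower median over all genes was not tested. Median-of-ratios scaling brought the 2 medians to -0.01 and 0.21. The counts of members at an adjusted p below 0.05 were then 13 higher, against 21.7% of all tested genes, and 2 lower, against 19.2% of all tested genes, in place of 12 and 7. This scaling raises *ssh1* values relative to the wild type for nearly every gene alike, so that small falls shrink by its construction. Over all tested genes the share of such calls that were higher in *ssh1* was 37.8% as deposited and 52.9% after this scaling. In 14 of the 30 members all *ssh1* replicates were above all wild-type replicates, against 21.7% of all tested genes, and in 10 all were below, against 38.0% of all tested genes.

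Among the beta-amylases, 2 loci that were low in the wild type were abundant in *ssh1*. LOC_Os03g04770, on chromosome 3, had 175, 183, and 74.6 FPKM in *ssh1*, against 0.936, 1.05, and 1.0 FPKM in the wild type. The groups were far apart, although *ssh1* replicate 3 was well below the other two *ssh1* replicates. The mean was 144 ± 60.3 FPKM in *ssh1* and 0.999 ± 0.0584 FPKM in the wild type (SD, n = 3 each), a ratio of 144 (log2 fold change 6.07, standard error 0.34, adjusted p = 0.000141). Since its wild-type mean was under 1 FPKM, it entered the test only through *ssh1*, where it was high. LOC_Os10g41550, on chromosome 10, had 46.9, 36.0, and 32.6 FPKM in *ssh1*, against 3.16, 2.06, and 3.61 FPKM in the wild type. Again the groups did not overlap, and the lowest *ssh1* replicate was replicate 3. Its means were 38.5 ± 7.48 FPKM in *ssh1* and 2.94 ± 0.798 FPKM in the wild type (SD, n = 3 each), a ratio of 13.1 (log2 fold change 3.33, standard error 0.20, adjusted p = 0.000167).

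The third tested beta-amylase, LOC_Os09g39570, went the other way, with 4.59, 3.82, and 5.14 FPKM in *ssh1*, against 5.88, 6.14, and 5.88 FPKM in the wild type. Its difference on the log2 scale, -0.34 (standard error 0.11, adjusted p = 0.0498), was just past the call, and it lost the call in 11 of 14 alternatives, the highest adjusted p being 0.137. LOC_Os10g32810, at 2.09, 1.70, and 0.938 FPKM in *ssh1* and 0.154, 0.376, and 0.0859 FPKM in the wild type, had a mean of 0.891 FPKM over all samples, just under the limit for testing. Its groups did not overlap, but no test was made at this level. LOC_Os07g35880 did not overlap either but was lower in *ssh1*. Near 0 throughout, it had 0.0860, 0, and 0.0698 FPKM in *ssh1*, against 0.146, 0.205, and 0.122 FPKM in the wild type. LOC_Os07g35940 overlapped between genotypes, at 0.345 to 0.985 FPKM over the 6 samples. How reads common to similar loci were divided between them is not given in the sources used here.

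The beta-amylase sum was therefore higher and of another make-up in *ssh1*, mainly through LOC_Os03g04770 and LOC_Os10g41550. The 6 loci summed to 229, 225, and 114 FPKM in *ssh1*, against 10.8, 10.4, and 11.7 FPKM in the wild type. LOC_Os03g04770 made up 74.4 ± 8.10% of this sum in *ssh1* and 9.15 ± 0.860% in the wild type (SD, n = 3 each). LOC_Os09g39570, the leading locus of the wild type, made up 2.74 ± 1.54% in *ssh1* and 54.7 ± 4.52% in the wild type (SD, n = 3 each). Its mean was 4.52 FPKM in *ssh1* and 5.97 FPKM in the wild type, so that the smaller share came mostly from the larger sum. LOC_Os10g41550 held a similar part of the sum, 21.7 ± 6.36% in *ssh1* and 26.7 ± 5.94% in the wild type, with overlapping replicates. Such shares do not depend on scaling between libraries. An exact permutation test of 3 replicates against 3 cannot go below p = 0.1 (two-sided), so that the shares here and below are given as descriptions.

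Of the 3 alpha-amylase loci, 1 was detected at a level that could be tested. LOC_Os08g36910, on chromosome 8, had 4.47, 3.91, and 2.0 FPKM in *ssh1* and was listed at 0 in all 3 wild-type replicates. Its mean of 1.73 FPKM over the 6 samples, the lowest of the tested members, came from *ssh1* alone, so that it entered the test only through the group where it was high. The difference on the log2(FPKM + 1) scale was 2.11 (standard error 0.24, adjusted p = 0.00133), short of the study's threshold of 0.001, and no fold is given against values of 0. LOC_Os08g36900 was listed at 0.0442 FPKM in *ssh1* replicate 1 and at 0 in the other 5 libraries, and LOC_Os02g52710 at 0 in all 6. Over 6 other alpha-amylase loci, which are no members, 0 of the 2 tested passed an adjusted p of 0.05.

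**Figure D2:**
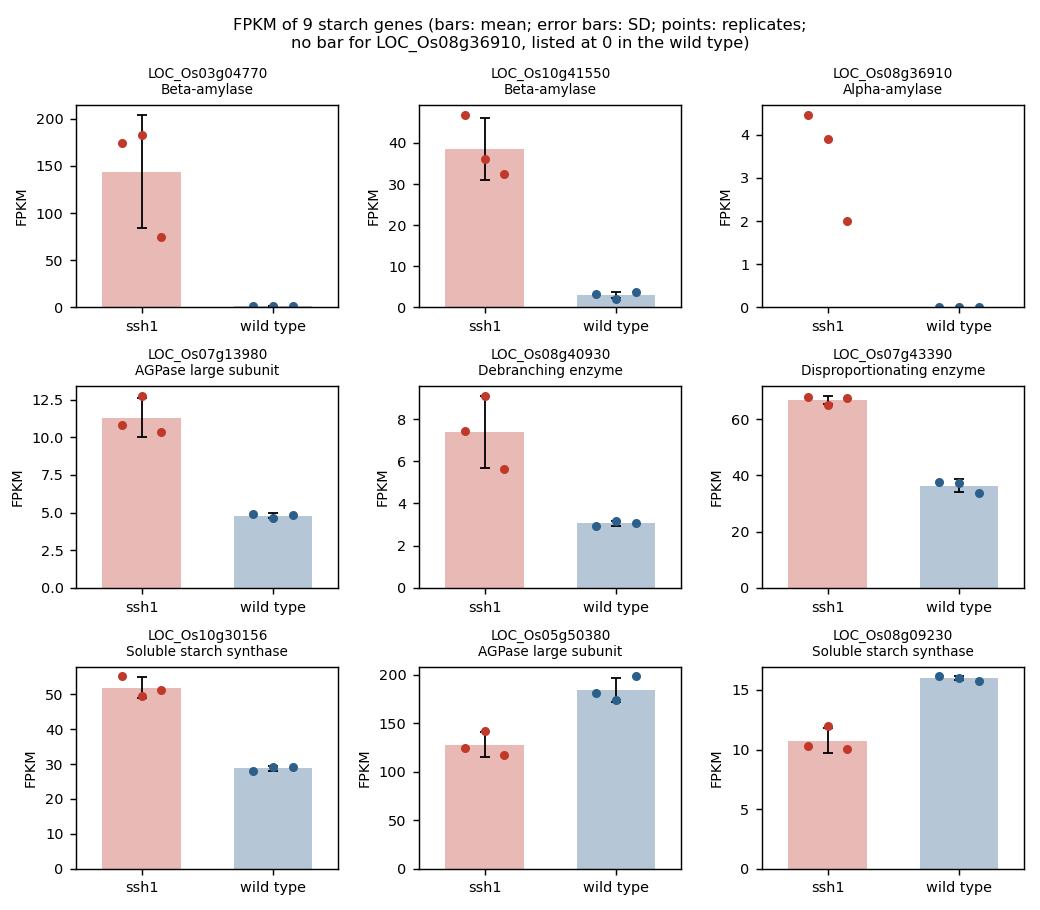
FPKM (vertical axes, linear from 0) of 9 starch genes in the 3 *ssh1* and 3 wild-type replicates, with bars for the mean and error bars for the SD, except LOC_Os08g36910, which is shown by its replicates only. The first 7 genes are higher in every *ssh1* replicate than in any wild-type replicate, and the last 2, LOC_Os05g50380 and LOC_Os08g09230, are lower.

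Of the enzymes that rework glucans during breakdown, 1 disproportionating enzyme rose. LOC_Os07g43390 had 67.9, 65.1, and 67.6 FPKM in *ssh1*, against 37.8, 37.5, and 33.8 FPKM in the wild type. Its replicates were close in both groups, and its change (log2 fold change 0.86, standard error 0.07, adjusted p = 0.00039) missed the fold threshold of the study, which it passed after median-of-ratios scaling. The other locus, LOC_Os07g46790, had 30.5, 33.4, and 30.5 FPKM in *ssh1*, against 34.1, 34.8, and 35.4 FPKM in the wild type (adjusted p = 0.124). LOC_Os07g43390 thus made up 68.0 ± 1.67% of the pair in *ssh1* and 51.1 ± 2.02% in the wild type (SD, n = 3 each).

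Of the 2 starch phosphorylases, which add or remove glucose units at chain ends, 1 fell and the other did not pass. LOC_Os01g63270 fell, with 20.1, 20.4, and 19.1 FPKM in *ssh1*, against 25.7, 26.5, and 24.6 FPKM in the wild type. It changed little in size (log2 fold change -0.35, standard error 0.07, adjusted p = 0.00696), and the call was lost after median-of-ratios scaling (adjusted p = 0.0582). LOC_Os03g55090, the more abundant locus, had 40.5, 54.1, and 41.9 FPKM in *ssh1*, against 36.0, 38.7, and 36.3 FPKM in the wild type, and did not pass (log2 fold change 0.28, adjusted p = 0.102). Its share of the pair was 69.4 ± 2.96% in *ssh1* and 59.1 ± 0.645% in the wild type (SD, n = 3 each), with no overlap between replicates. The glucan, water dikinase LOC_Os06g30310 averaged 15.6 ± 0.786 FPKM in *ssh1* and 13.8 ± 0.645 FPKM in the wild type (SD, n = 3 each) and did not pass (adjusted p = 0.119), although it did after median-of-ratios scaling (log2 fold change 0.30, adjusted p = 0.0364).

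On the side of synthesis, 2 of the 4 large subunits of ADP-glucose pyrophosphorylase changed, in opposite directions, and neither of the small subunits passed the test. LOC_Os07g13980 lies on chromosome 7, as do *SNB*, LOC_Os07g22930, LOC_Os07g43390, LOC_Os07g46790, LOC_Os07g35880, and LOC_Os07g35940. It had 10.8, 12.8, and 10.3 FPKM in *ssh1*, against 4.92, 4.61, and 4.87 FPKM in the wild type. It was the only synthesis gene past the study's thresholds, at a ratio of 2.36 (log2 fold change 1.08, standard error 0.10, adjusted p = 0.000639). LOC_Os05g50380, by far the most abundant large subunit, fell, with 125, 142, and 117 FPKM in *ssh1*, against 181, 174, and 199 FPKM in the wild type (log2 fold change -0.52, standard error 0.10, adjusted p = 0.00647). The groups of both genes were apart in opposite directions. LOC_Os01g44220 averaged 3.69 ± 0.579 FPKM in *ssh1* and 3.49 ± 0.178 FPKM in the wild type, and LOC_Os03g52460 averaged 5.25 ± 0.418 FPKM in *ssh1* and 5.71 ± 0.727 FPKM in the wild type (SD, n = 3 each). These 2 genes overlapped between genotypes and did not pass (limma adjusted p = 0.726 and 0.510).

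LOC_Os05g50380 remained the main large subunit in both genotypes, at 86.3 ± 0.636% of the class in *ssh1* and 93.0 ± 0.180% in the wild type, while LOC_Os07g13980 held 7.61 ± 0.123% in *ssh1* and 2.42 ± 0.126% in the wild type (SD, n = 3 each). The 4 loci summed to 144, 165, and 137 FPKM in *ssh1*, against 196, 187, and 214 FPKM in the wild type. The small subunit LOC_Os09g12660 had 76.1, 83.0, and 81.7 FPKM in *ssh1*, against 77.9, 83.0, and 79.1 FPKM in the wild type. LOC_Os08g25734 had 110, 103, and 107 FPKM in *ssh1*, against 98.3, 87.9, and 110 FPKM in the wild type. The replicates of both small subunits overlapped between genotypes (adjusted p = 0.962 and 0.319).

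Of the 7 tested soluble starch synthases, which lengthen the chains of amylopectin, 3 rose and 2 fell. LOC_Os10g30156 had 55.1, 49.5, and 51.2 FPKM in *ssh1*, against 28.0, 29.2, and 29.1 FPKM in the wild type. It had the widest change of the class (log2 fold change 0.83, standard error 0.07, adjusted p = 0.000413) and passed the study's adjusted p but not its fold change. LOC_Os04g53310 had 34.5, 43.2, and 32 FPKM in *ssh1*, against 23.4, 24.0, and 26.7 FPKM in the wild type (log2 fold change 0.54, adjusted p = 0.0148). LOC_Os05g45720 had 10.8, 11.5, and 9.35 FPKM in *ssh1*, against 7.27, 7.13, and 8.28 FPKM in the wild type (log2 fold change 0.43, adjusted p = 0.0189). These 2 rises were less firm. LOC_Os04g53310 lost the call without wild-type replicate 1 or 2 (adjusted p up to 0.0587), and LOC_Os05g45720 lost it without *ssh1* replicate 1 or wild-type replicate 1 or 2 and in 1 further alternative (adjusted p up to 0.0724).

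LOC_Os08g09230 fell most among the starch synthases, with 10.3, 11.9, and 10.1 FPKM in *ssh1*, against 16.1, 16.0, and 15.8 FPKM in the wild type (log2 fold change -0.53, standard error 0.09, adjusted p = 0.00402). LOC_Os02g51070 had 18.4, 17.4, and 20.3 FPKM in *ssh1*, against 22.0, 21.9, and 24.4 FPKM in the wild type (log2 fold change -0.27, adjusted p = 0.0416). This fall was lost in 9 of 14 alternatives, median-of-ratios scaling among them (adjusted p up to 0.207). LOC_Os06g06560 had 32.5, 34.7, and 34.5 FPKM in *ssh1*, against 35.3, 33.6, and 39.4 FPKM in the wild type (adjusted p = 0.396), and its sign turned to 0.05 after median-of-ratios scaling. LOC_Os01g52250 averaged 11.9 ± 0.573 FPKM in *ssh1* and 13.8 ± 0.390 FPKM in the wild type (SD, n = 3 each). Its adjusted p from limma was 0.0589, and it passed with a minimum mean of 5 FPKM or with sample quality weights (0.0471 and 0.0447). LOC_Os06g12450, below the limit, ranged over 0.316 to 1.67 FPKM in *ssh1* and 0.0823 to 0.509 FPKM in the wild type.

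The order of the soluble starch synthases differed between genotypes, and their sum was 175, 181, and 170 FPKM in *ssh1*, against 146, 146, and 158 FPKM in the wild type. LOC_Os10g30156 led the class in *ssh1* with 29.7 ± 2.17%, against 19.2 ± 0.794% in the wild type, where LOC_Os06g06560 led with 24.1 ± 0.945%, against 19.4 ± 0.868% in *ssh1* (SD, n = 3 each). In *ssh1* the shares of LOC_Os06g06560 and LOC_Os04g53310 (20.8 ± 2.66%) overlapped in their replicates. Of the granule-bound starch synthases, LOC_Os07g22930, the most abundant starch gene of the wild type, had 148, 189, and 177 FPKM in *ssh1*, against 187, 213, and 205 FPKM in the wild type, and did not pass (log2 fold change -0.24, adjusted p = 0.116). LOC_Os06g04200 was at 0 to 0.113 FPKM in *ssh1* and 0.0663 to 0.46 FPKM in the wild type, so that this class was carried almost wholly by LOC_Os07g22930 in both genotypes.

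**Figure D3:**
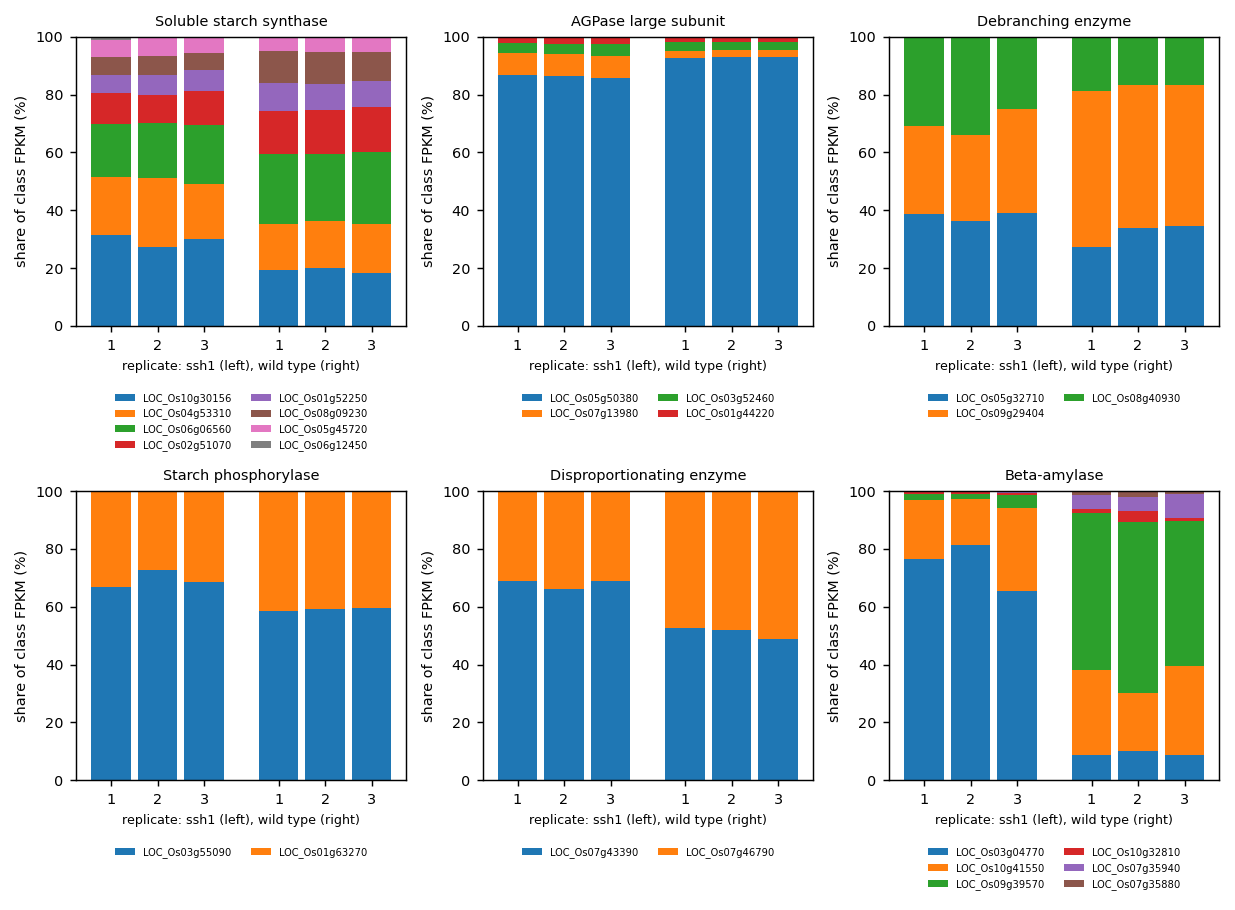
Share of the summed FPKM of an enzyme class held by each of its loci (vertical axes, %), in each replicate, for 6 classes. LOC_Os03g04770 takes 74.4% of the beta-amylase sum in *ssh1* on average and 9.15% in the wild type, and LOC_Os07g43390 takes 68.0% of the disproportionating enzyme sum in *ssh1* and 51.1% in the wild type.

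The branching enzymes, which set the branch points of amylopectin, moved in both directions. LOC_Os04g33460, the most abundant, had 76.3, 102, and 92.3 FPKM in *ssh1*, against 53.5, 59.0, and 60.2 FPKM in the wild type (log2 fold change 0.63, standard error 0.12, adjusted p = 0.00718). LOC_Os06g51084 had 30.6, 36.6, and 33.0 FPKM in *ssh1*, against 25.1, 26.3, and 26.2 FPKM in the wild type (log2 fold change 0.35, adjusted p = 0.0152). All *ssh1* replicates of these 2 genes were above the wild type, but LOC_Os06g51084 lost the call without wild-type replicate 1 (adjusted p = 0.0605). LOC_Os02g32660, the least abundant, fell, with 5.87, 6.96, and 6.08 FPKM in *ssh1*, against 8.13, 7.71, and 10.4 FPKM in the wild type (log2 fold change -0.41, adjusted p = 0.0446), a call lost in 9 of 14 alternatives (adjusted p up to 0.154). Its share of the class was 4.87 ± 0.296% in *ssh1* and 9.47 ± 1.23% in the wild type (SD, n = 3 each).

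Among the debranching enzymes, 2 of the 3 tested loci rose. LOC_Os08g40930 had 7.44, 9.09, and 5.65 FPKM in *ssh1*, against 2.92, 3.15, and 3.10 FPKM in the wild type, a ratio of 2.42 (log2 fold change 1.03, standard error 0.16, adjusted p = 0.00392). LOC_Os05g32710 had 9.37, 9.74, and 8.92 FPKM in *ssh1*, against 4.25, 6.42, and 6.41 FPKM in the wild type (log2 fold change 0.65, standard error 0.15, adjusted p = 0.0169). The first passed the fold change of the study but not its adjusted p, and *ssh1* replicate 3 was again the lowest. LOC_Os09g29404 had 7.40, 7.99, and 8.18 FPKM in *ssh1*, against 8.34, 9.40, and 9.0 FPKM in the wild type, and did not pass (adjusted p = 0.162). This gene made up 32.1 ± 3.36% of the measured debranching sum in *ssh1* and 50.7 ± 2.76% in the wild type (SD, n = 3 each), where it was the leading locus of the 3.

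Of the 2 plastid envelope transporters, LOC_Os08g08840 fell, with 76.1, 71.1, and 67.5 FPKM in *ssh1*, against 83.0, 94.6, and 91.8 FPKM in the wild type (log2 fold change -0.32, standard error 0.08, adjusted p = 0.0186). Its call was lost in 4 of 14 alternatives, among them median-of-ratios scaling (adjusted p = 0.127), without wild-type replicate 2 (0.0684), and without wild-type replicate 3 (0.0676). LOC_Os02g10800 was listed at 0.047 FPKM in *ssh1* replicate 1 and at 0 in the other 5 libraries. The levels of all listed members by replicate are drawn in the plot of log2(FPKM + 1).

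**Figure D4:**
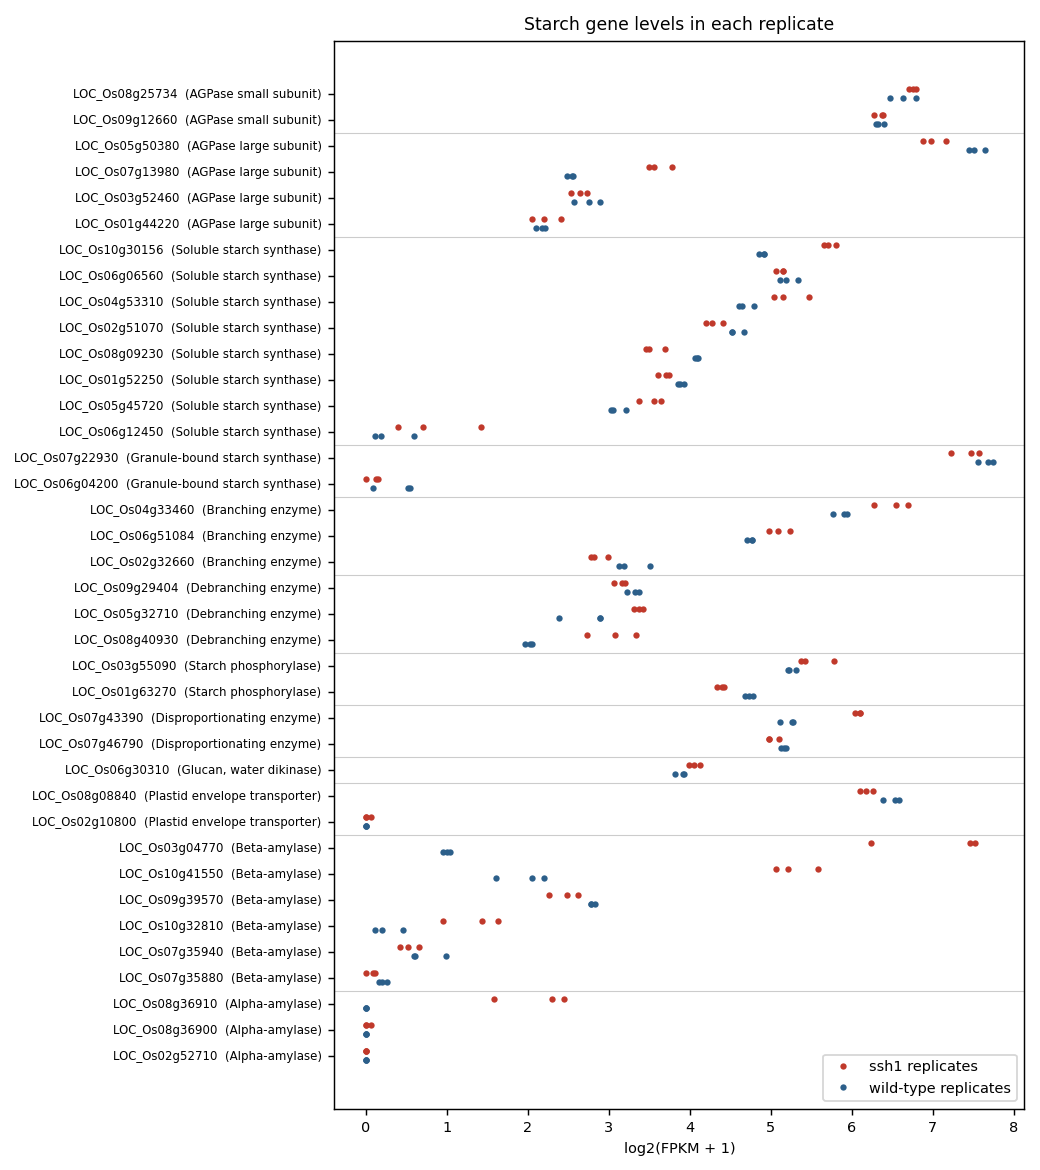
Levels of the 38 listed starch genes as log2(FPKM + 1) (horizontal axis), with 1 point per replicate and the *ssh1* replicates drawn above the wild-type replicates of each gene. Genes are grouped by class and ordered by mean level, and the beta-amylases LOC_Os03g04770 and LOC_Os10g41550 show the widest gaps between genotypes.

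The firmness of the calls differed among the members. Of the 12 rises, 9 stayed at an adjusted p below 0.05 in every alternative in which they were tested, including each replicate left out. Of the 7 falls, 2 did so, LOC_Os08g09230 and LOC_Os05g50380. The same shares over all tested genes are not given here, so that these counts are descriptions. Median-of-ratios scaling, which shrinks small falls by its construction, is among the alternatives, and LOC_Os01g63270 lost its call there only. At the study's thresholds, LOC_Os03g04770, LOC_Os10g41550, and LOC_Os07g13980 passed with all replicates. Without *ssh1* replicate 1 or 2 there were 2 calls, LOC_Os07g13980 being lost, and without *ssh1* replicate 3 there were 3, with LOC_Os08g36910 in place of LOC_Os07g13980. Without wild-type replicate 2 there was 1 call, LOC_Os10g41550, and without wild-type replicate 1 or 3 there were 0. The log2 fold changes of the 3 genes stayed at 5.85 to 6.49, 3.16 to 3.45, and 0.997 to 1.14 over these 6 fits, which have fewer residual degrees of freedom, and their adjusted p-values reached 0.00225, 0.00227, and 0.00548.

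The spread between replicates was wider in *ssh1* than in the wild type for most members. The median SD on the log2 scale over the 30 members was 0.12 in *ssh1* and 0.07 in the wild type, against 0.16 in *ssh1* and 0.10 in the wild type over all tested genes, and 20 of the 30 members had the wider spread in *ssh1*. Among the 19 members at an adjusted p below 0.05, *ssh1* replicate 3 was the nearest to the wild-type mean in 10, replicate 2 in 6, and replicate 1 in 3. Neither these counts nor the 20 of 30 are given over all tested genes, so that they are descriptions of the members. The median of the group means over the 30 members was 25.7 FPKM in *ssh1* and 19.4 FPKM in the wild type, against 11.1 FPKM in *ssh1* and 11.5 FPKM in the wild type over all tested genes.

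Genes that bring sucrose carbon toward starch, set as separate lists and not members, also moved in both directions. Their loci are named here after their values were seen. Over all tested genes, 17.0% rose and 28.0% fell by the same call, so that the counts of these short lists are descriptions. Of 5 tested sucrose synthases, which split sucrose for use in sinks, 2 rose and 1 fell. The abundant LOC_Os03g28330 fell to 555, 555, and 481 FPKM in *ssh1*, against 653, 826, and 878 FPKM in the wild type (adjusted p = 0.0169), while LOC_Os03g22120 rose to 10.8, 10.2, and 8.29 FPKM in *ssh1*, against 3.70, 3.78, and 4.61 FPKM in the wild type (adjusted p = 0.00144). The 2 tested cell wall invertases, which split sucrose outside the cell, changed in opposite directions. LOC_Os04g33740 fell to 9.55, 8.55, and 8.12 FPKM in *ssh1*, against 31.6, 31.0, and 32.2 FPKM in the wild type (log2 fold change -1.75, standard error 0.08, adjusted p = 7.24e-05), past the study's thresholds. LOC_Os02g33110 rose, with 14.1, 14.7, and 6.5 FPKM in *ssh1*, against 3.85, 5.40, and 4.72 FPKM in the wild type (adjusted p = 0.0266). A further glucose 6-phosphate transporter locus, LOC_Os07g34006, fell (log2 fold change -1.0, adjusted p = 0.0384), although its replicates overlapped. Of 2 tested loci listed as starch regulators, LOC_Os03g48170 fell (log2 fold change -0.89, adjusted p = 0.00118) and the other did not pass. The third changed sucrose synthase, LOC_Os07g42490, rose at a low level, with 2.36, 2.78, and 2.17 FPKM in *ssh1*, against 0.857, 0.444, and 1.22 FPKM in the wild type (adjusted p = 0.0107), where its mean was under the limit of 1 FPKM.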

How the data were processed

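The series holds 6 RNA-seq libraries of young panicles, 3 of each genotype. Per the labels and methods, the authors mapped paired-end reads to IRGSP-1.0 (MSU7 annotation) using TopHat2 and deposited FPKM values per gene and replicate from Cuffdiff. Tool versions are not given in the sources used here. No read counts are used, so that no counting interval is given, and the precision of a low value is unknown.

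The 4 locus IDs listed more than once were removed, leaving 55982. Those averaging 1 FPKM or more were tested on log2(FPKM + 1) using limma 3.58.1 in R 4.3.3 (lmFit, eBayes with trend) with a term for genotype, and p-values were adjusted over all 18537 genes by the Benjamini-Hochberg method. The limma fit and its calls were also tested on simulated log2 values, which leaves the filter, the pseudocount, and the scaling untested. Plots were drawn with matplotlib 3.10.9. The thresholds were those of the study (fold change 2, adjusted p 0.001), beside an adjusted p of 0.05. Cuffdiff was not rerun. Values are printed per replicate for genes past either call and for the 2 most abundant loci of a class. Other tested members are given by group means, and those below 1 FPKM by ranges or replicate values. The share of each locus in its class was compared by exact permutation in SciPy 1.17.1. The members, lists, and tests were chosen with earlier results of these data known. Each replicate was a separate pool of plants. Same-numbered replicates did not deviate together (correlations of -0.10, -0.07, and -0.17), so the replicate number served as a block only in an alternative. The other alternatives were another pseudocount, other filters, scaling, variance estimates, thresholds, and each replicate left out.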

Additional observations from a re-analysis of the deposited data

How the results depend on the processing

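At the thresholds of the study, 3 starch genes passed, all higher in *ssh1*. With the replicate number as a block (replicate block) there were 0, and at an adjusted p below 0.01 or below 0.05 with the same fold change there were 5, all higher, against 5.87% and 7.07% of all tested genes that were higher by these calls. Leaving out each replicate in turn gave 0 to 3. The block leaves fewer residual degrees of freedom, and its smallest adjusted p over all genes was 0.00201, so that no gene could pass. With the block, 5 members combined a fold change of at least 2 with an unadjusted p under 0.05, against 7.47% of all tested genes. Under the block, LOC_Os05g45720 and LOC_Os08g08840 lost their calls at an adjusted p of 0.05 (0.0724 and 0.0731). So did LOC_Os02g51070, LOC_Os02g32660, and LOC_Os09g39570 (0.0664, 0.0986, and 0.114).

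At an adjusted p below 0.05, 7 of the 30 tested starch genes were lower in *ssh1*, against 5192 of all 18537 tested genes. Testing every detected gene gave 4 of 37 members, against 4864 of 30210 genes. Over the same 18537 genes, median-of-ratios scaling gave 2 members (3568 of all genes), quantile normalization 4 (4431), and the replicate block 3 (3455). Leaving out a replicate gave 3 to 6 members, against 3288 to 5131 of all genes. The cause was not tested. Higher members numbered 10 to 13 in these alternatives, against 12, and higher genes over all tested numbered 2279 to 4015, against 3149.

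*SNB*, at a log2 fold change of -1.11, missed only the adjusted p of the study in some alternatives. These were the test of every detected gene (limma adjusted p = 0.00168) and the replicate block (0.00721). Each fit that left a replicate out (0.00166 to 0.00538, log2 fold change -1.17 to -1.02) did so too. Under median-of-ratios scaling *SNB* missed only the fold change (-0.98, adjusted p = 0.000887). The signs that turned were all of genes that passed in no setting. LOC_Os06g06560 turned to 0.049 and LOC_Os03g52460 to 0.019 after median-of-ratios scaling. LOC_Os09g12660 was -0.026 after quantile normalization and -0.0085 under sample quality weights. Without 1 replicate it lay between -0.020 and 0.041, and LOC_Os01g44220 between -0.035 and 0.14. Over the 30 members and 14 alternatives, 365 comparisons kept their direction and their side of an adjusted p of 0.05, 41 were lost, 3 were gained, and 9 turned. With a minimum mean of 5 FPKM, LOC_Os08g36910 and LOC_Os01g44220 were not tested. At low FPKM, as in the alpha-amylases, the error of a value is unknown.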
